A study of Mus musculus with 6 samples.

Results

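The lysosome is the acid compartment in which cells break down proteins, lipids and whole organelles, and the genes described here build it, acidify it, fill it and deliver cargo to it. They are the subunits of the vacuolar proton pump (V-ATPase; symbols Atp6v0, Atp6v1, Atp6ap1 and Atp6ap2), the lysosomal cathepsins with the membrane proteins Lamp1 and Lamp2, and the Vps genes, named after yeast mutants in vacuolar protein sorting. Members were chosen by symbol alone, and 67 of the 17794 genes in the deposited table matched. A mean of at least 50 total gene reads over the 6 libraries was then required, which kept 64 genes: 18 of 20 V-ATPase genes, 14 of 15 cathepsin and Lamp genes, and all 32 Vps genes. The 3 left out were Atp6v1c2 (mean 2.33 reads), Ctsk (13.7) and Atp6v0a4 (29.5), and the members nearest above the limit were Ctsw (53.2) and Ctsh (93).

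RNA came from the medial ganglionic eminence (MGE), the ventral forebrain region that generates many cortical interneurons, of mouse embryos at stage E13.5. The double mutant group (dmut) was Rac1fl/fl and Rac3-/-, so that Rac3 was missing from every cell while the floxed Rac1 could be deleted only where Cre had been active. The control group was Rac1+/+ and Rac3+/+. Embryos of both groups carried the Nkx2.1Tg(Cre) transgene, in which regulatory sequence of the MGE transcription factor gene Nkx2-1 drives Cre, and the reporter R26R-YFP+/-. Each group had 3 libraries, and each library was a pool of MGEs from 3 embryos. The comparison asks how loss of both Rac GTPases, regulators of the actin cytoskeleton, alters gene expression in this tissue.

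The V-ATPase is a rotary motor: its cytosolic V1 sector hydrolyses ATP and turns the membrane-embedded V0 sector, which pumps protons into endosomes, lysosomes and, in neurons, synaptic vesicles. Low pH activates most cathepsins, the lysosomal proteases, while Lamp1 and Lamp2 are heavily glycosylated proteins that make up much of the lysosomal membrane. Vps proteins work mainly as complexes: HOPS and CORVET tether endosomes and lysosomes before fusion, retromer and GARP recycle receptors to the Golgi, and ESCRT with the ATPase Vps4 sorts ubiquitinated cargo into internal vesicles.

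Depth was 30363369, 29999684 and 26766556 total gene reads in dmut libraries 1 to 3, against 33647854, 34612095 and 31881697 in control libraries 1 to 3. The 64 members took 0.376%, 0.393% and 0.400% of the reads in dmut and 0.414%, 0.405% and 0.422% in control. Rac3 had 16, 0 and 0 reads in dmut and 728, 647 and 532 in control (edgeR adjusted p = 0.0413), where a listed 0 stands for at most 9 reads. Rac1 had 221, 273 and 251 CPM in dmut and 275, 273 and 269 CPM in control, where CPM are reads scaled to a common library total with TMM factors. Reads from exons left after recombination and from cells that never expressed Cre also count toward Rac1. All 10 MGE markers examined (Nkx2-1, Lhx6, Dlx and Gad genes among them) were detected in every library and summed to 2081, 1681 and 2137 CPM in dmut and 1833, 1642 and 1603 CPM in control. Summed neuron markers stood at 4202, 4008 and 4335 CPM in dmut and 3125, 3395 and 3738 CPM in control, higher in every dmut library, and none of the 8 was called. Progenitor markers summed to 3829, 3078 and 3393 CPM in dmut and 2901, 3162 and 3172 CPM in control, with overlap. The median log2 fold was 0.15 for neuron, 0.17 for progenitor and 0.22 for endothelium markers. Haemoglobin and other erythroid genes were uneven, at 35610, 9798 and 11150 CPM in dmut and 19050, 11900 and 20590 CPM in control. Markers of cortical excitatory neurons summed to 97.0 CPM in dmut 2 against 15.8 to 50.1 CPM in the other libraries. The part of these cells in the members' values was not tested. In bulk tissue, fewer cells of a type and less RNA per cell cannot be told apart.

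Per length of transcript, the proton pump genes were among the most abundant members. Atp6v1g1, a stalk subunit of V1, had the highest mean, at 91.2, 86.1 and 112 RPKM in dmut and 101, 88.5 and 95.8 RPKM in control. RPKM is the authors' unit, reads scaled by exon length and by the library's total. It did not follow total gene reads in every gene. Atp6v0a4 had 20 total gene reads and 0.0748 RPKM in dmut 3 but 59 reads and 0.0537 RPKM in control 1. RPKM thus rests on a different set of reads, and which reads it counted is not given in the sources used here. After Atp6v1g1 came Atp6v0d1, the V0 subunit that couples the rotor to V1. It had 78.0, 88.3 and 82.9 RPKM in dmut and 84.1, 85.4 and 88.5 RPKM in control. Lamp1 had 87.4, 89.4 and 84.9 RPKM in dmut and 81.9, 79.0 and 81.4 RPKM in control. Those of Lamp1 did not overlap between groups, whereas those of Atp6v1g1 and Atp6v0d1 did. The aspartic protease gene Ctsd was the most abundant cathepsin, at 59.1, 70.8 and 58.4 RPKM in dmut and 66.2, 59.9 and 69.3 RPKM in control, followed by the cysteine protease gene Ctsb at 35.6 to 38.7 RPKM in dmut and 35.1 to 41.6 RPKM in control. Among Vps genes the retromer core Vps35, at 45.4 ± 2.56 RPKM in dmut and 49.4 ± 5.12 in control, and the ESCRT-I gene Vps28, at 51.3 ± 11.7 in dmut and 42.7 ± 5.50 in control (SD, n = 3 each), were the most abundant.

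Several subunits are encoded by related gene copies, and the MGE used some of these copies unequally in both groups. For subunit G of the pump, the ubiquitous Atp6v1g1 stood at 96.5 ± 13.8 RPKM in dmut and 95.1 ± 6.37 in control, far above the neuronal copy Atp6v1g2 at 3.72 ± 0.836 in dmut and 3.43 ± 0.496 in control (SD, n = 3 each). Of the subunit e genes, Atp6v0e2 was the more abundant, at 38.6 ± 3.91 RPKM in dmut and 35.2 ± 3.55 in control, with Atp6v0e at 8.35 ± 0.216 in dmut and 7.35 ± 0.405 in control. The a subunits, which set the membrane on which a pump sits, were close to each other: Atp6v0a1 had 9.82 ± 1.27 RPKM in dmut and 12.4 ± 1.07 in control, and Atp6v0a2 had 10.7 ± 1.36 in dmut and 12.4 ± 1.03 in control. Atp6v0a4, the kidney and inner ear copy, was below the read limit, with 13, 0 and 20 reads in dmut and 59, 35 and 50 in control.

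The Vps families also held both unequal and near-equal copies. Vps4a, an ESCRT-disassembling ATPase, had 32.9 ± 4.31 RPKM in dmut and 31.7 ± 0.0628 in control, and its copy Vps4b had 5.10 ± 0.574 in dmut and 6.07 ± 0.413 in control. Only 49.4% of the Vps4a total gene reads were unique to the gene. The retromer cargo adaptors Vps26a (18.6 ± 1.54 RPKM in dmut, 19.5 ± 0.811 in control) and Vps26b (17.9 ± 1.102 in dmut, 18.6 ± 0.555 in control) lay close to each other. The tethering subunit Vps33a, at 17.1 ± 2.51 RPKM in dmut and 18.6 ± 2.16 in control, stood above Vps33b at 2.55 ± 0.533 in dmut and 4.20 ± 0.124 in control. Of the 4 ESCRT-I subunits of the Vps37 family, Vps37b was highest at 20.2 ± 2.64 RPKM in dmut and 20.8 ± 1.21 in control, and Vps37a was lowest at 3.17 ± 0.527 in dmut and 4.87 ± 0.278 in control. The 4 Vps13 genes, which encode very long bridge-like lipid transfer proteins, all lay between 1.37 and 1.83 RPKM in dmut and between 2.19 and 2.62 RPKM in control (group means). RPKM were scaled by library totals, and on log2(RPKM + 1) 11366 of the 15960 tested genes stood lower in dmut.

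**Figure D1:**
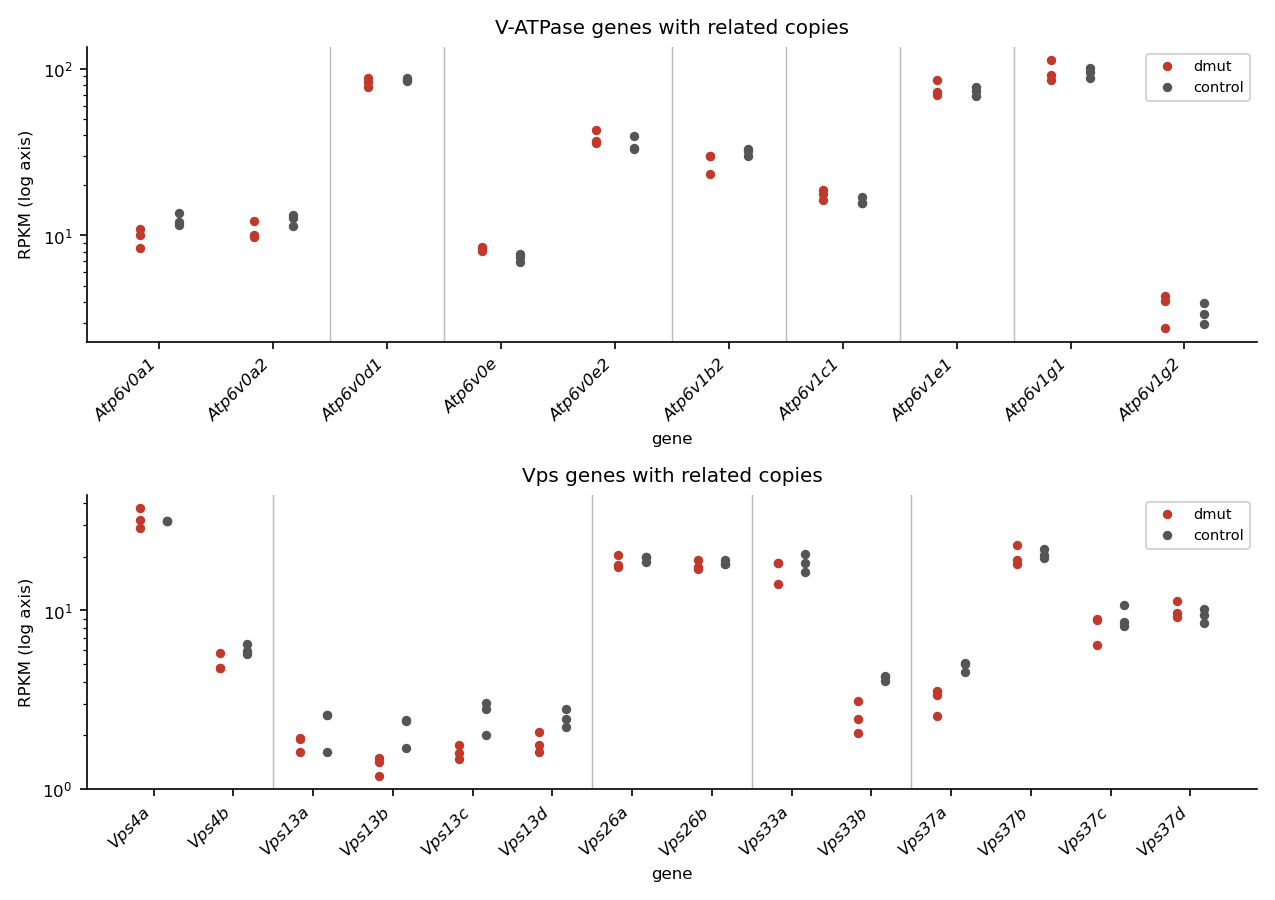
RPKM (log axis) of the V-ATPase genes (top) and Vps genes (bottom) that have related copies, with 1 point for each library, dmut in red on the left and control in grey on the right of each gene; vertical lines divide the families. Atp6v1g1 lies far above Atp6v1g2 and Vps33a far above Vps33b in both groups. Atp6v0a1, Vps13b, Vps13c, Vps13d, Vps33b and Vps37a show 3 dmut points below all 3 control points, and Atp6v0e shows the reverse. By RPKM 23.8% of all 17794 genes lay below in this way and 4.39% above.

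No member passed the test of dmut against control over all 15960 genes (edgeR quasi-likelihood test, Benjamini-Hochberg adjusted p under 0.05), in which 77 genes, or 0.482%, were called. The lowest adjusted p among the members was 0.0684, for Atp6v1f. At an unadjusted p under 0.05 there were 22 of the 64 members, 16 higher and 6 lower in dmut, where 21.3% of all genes passed, 11.1% higher and 10.1% lower. At an adjusted p of 0.1 they were 5 (Atp6v1f, Vps72, Vps13b, Vps13c and Vps37a), where 6.67% of all genes passed. DESeq2 called 11 members, where it called 10.6% of all genes, limma-voom called none, and limma on log2(RPKM + 1) called none (0.124% of all genes). With library size alone in place of TMM, edgeR called Vps13b, Vps13c, Vps33b and Vps37a, all lower, beside 4.89% of all genes. The authors' deposited table, with its own test, also called none of the members among its 155 called genes.

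Values that did not overlap between groups were more frequent upward in CPM. In 20 of the 64 members all 3 dmut libraries lay above all 3 control libraries, and in 7 all lay below, where over all genes the shares were 13.6% above and 14.9% below, 28.5% together. This split depended on the measure, that is on the scaling and, for RPKM, also on the reads counted. Vps37d, for one, had a log2 fold of -0.13 with library size alone and 0.09 on log2(RPKM + 1). By RPKM, 6 members lay above and 11 below. Over all 17794 genes with RPKM, 4.39% lay above and 23.8% below, 28.2% together. Of the 15960 genes used for CPM, 782 lay above and 4219 below by RPKM. With library size alone the median gene stood at a log2 fold of -0.23 (dmut over control), against -0.02 with TMM, and 22 rather than 42 of the 64 members had a positive fold. Relative to the median gene the 64 members together kept a higher median on each scale. It was 0.14 with TMM, -0.06 with library size alone and -0.05 on log2(RPKM + 1), where the median tested gene was at -0.10. The 32 Vps genes taken alone were not higher on log2(RPKM + 1), with a median of -0.12. Replicates within a group came from separate pools of embryos, and p-values measure the spread between those pools.

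**Figure D2:**
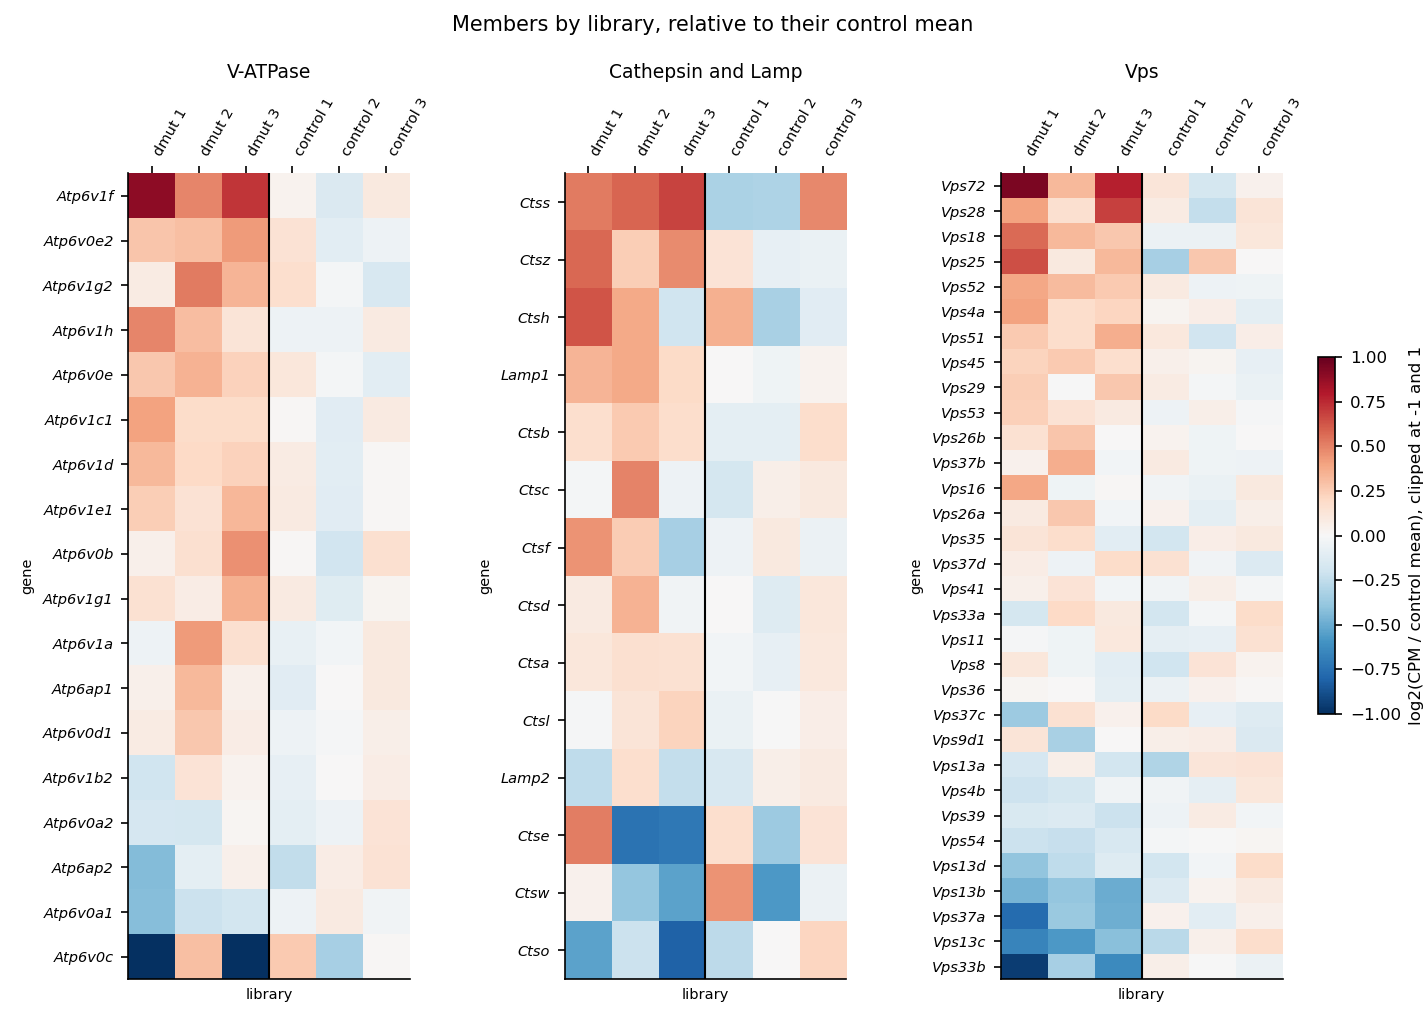
TMM CPM of each member in each library as log2 ratio to its control mean (red above, blue below, clipped at -1 and 1), with dmut libraries left of the black line and control libraries right of it, and genes ordered by log2 fold within each group. Atp6v1f and Vps72 are red in all 3 dmut libraries, Vps33b, Vps37a, Vps13b and Vps13c are blue in all 3, and Atp6v0c is dark blue in dmut 1 and 3 but not in dmut 2.

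The V1 sector held the largest V-ATPase value. Atp6v1f, subunit F of the central rotor stalk, had 65.8, 49.5 and 58.0 CPM in dmut and 36.3, 31.9 and 37.8 CPM in control. All 3 dmut libraries lay above all 3 control libraries, by RPKM as well. Its log2 fold was 0.71 ± 0.13 (SE; edgeR adjusted p = 0.0684), a 1.63-fold difference, and the authors' deposited table gave a fold of 1.59 with an adjusted p of 0.296. It was called with each pair of same-numbered libraries as a block (adjusted p = 0.0483), where 1.42% of all genes were called, and without dmut 2 (adjusted p = 0.0384), where 3.54% were, as well as by DESeq2 (adjusted p = 0.000273). Under the other alternatives its adjusted p was 0.0532 to 0.364, the highest with the date as a block. Atp6v1h, subunit H, which regulates coupling of the sectors, had 120.2, 106 and 93.6 CPM in dmut and 82.8, 82.7 and 91.3 CPM in control. The groups did not overlap, with dmut 3 only just above control 3, and the log2 fold was 0.32 ± 0.11 (edgeR adjusted p = 0.169).

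The peripheral and central stalk genes Atp6v1c1, Atp6v1d and Atp6v1e1 had log2 folds of 0.26, 0.25 and 0.24, each with dmut above control in every library by CPM and with overlap by RPKM. The catalytic subunit gene Atp6v1a, at 120.6, 167 and 139 CPM in dmut and 118, 123 and 133 CPM in control, overlapped between groups. Its partner in the ATP-hydrolysing ring, Atp6v1b2, had a log2 fold of 0.00 and also overlapped. In all, 8 of the 9 V1 genes had a positive fold with TMM and 7 with library size alone, and the V1 median was 0.25 with TMM, 0.05 with library size alone and 0.08 on log2(RPKM + 1).

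The membrane sector was mixed. Atp6v0e2, a small V0 subunit, had 73.5, 75.1 and 81.6 CPM in dmut and 67.3, 56.4 and 58.7 CPM in control, without overlap, at a log2 fold of 0.34 ± 0.10 (edgeR adjusted p = 0.123). Its copy Atp6v0e had 29.7, 31.4 and 28.96 CPM in dmut and 26.7, 24.4 and 22.98 CPM in control, without overlap by CPM or RPKM, at 0.28 ± 0.10 (edgeR adjusted p = 0.175). Atp6v0a1, the a subunit copy known from synaptic vesicles, ran the other way. It had 67.1, 77.9 and 79.7 CPM in dmut and 87.1, 95.9 and 88.0 CPM in control, lower in every dmut library by CPM and RPKM, at -0.27 ± 0.10 (edgeR adjusted p = 0.181).

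Atp6v0c, which encodes the proteolipid that forms the rotor ring, had the lowest fold of any member and the least even libraries. It had 863, 4017 and 1117 total gene reads in dmut and 5233, 3565 and 4043 in control, or 31.3, 147 and 42.6 CPM in dmut and 143, 95.3 and 120.4 CPM in control. Dmut 1 and 3 lay below every control library, while dmut 2 lay above them all in CPM. The log2 fold was -0.70 ± 0.54 (edgeR adjusted p = 0.519), and without dmut 2 it was -1.70 (adjusted p = 0.0375, against 0.166 to 0.763 under the other alternatives). Only 12.7% of its reads were unique to the gene, so its total is uncertain, and the unique reads also put dmut 1 and 3 far below the rest, with 162, 421 and 173 in dmut and 666, 456 and 511 in control. The 2 accessory subunit genes Atp6ap1 and Atp6ap2, at log2 folds of 0.15 and -0.15, overlapped between groups. Over the 18 V-ATPase members 8 lay above and 1 below in CPM, where 13.6% and 14.9% of all genes did so. By RPKM 2 lay above and 1 below, where all 17794 genes with RPKM had 4.39% and 23.8%. The V-ATPase median fold was 0.22 with TMM, 0.02 with library size alone and 0.03 on log2(RPKM + 1).

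Among lysosomal membrane proteins, Lamp1 had 219, 225 and 198 CPM in dmut and 174, 168 and 178 CPM in control. Every dmut library lay above every control library, by RPKM too, and the log2 fold was 0.30 ± 0.09 (edgeR adjusted p = 0.118). Lamp2, which also has a part in chaperone-mediated autophagy, had 44.5, 59.8 and 44.95 CPM in dmut and 47.6, 55.3 and 56.6 CPM in control. Its groups overlapped, with dmut 2 the highest library and dmut 1 the lowest, and its log2 fold was -0.10.

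Ctsz, a carboxypeptidase of the cysteine cathepsin family, had 56.3, 44.8 and 52.4 CPM in dmut and 41.6, 35.8 and 36.1 CPM in control. The groups did not overlap by CPM and overlapped by RPKM, and the log2 fold was 0.44 ± 0.12 (edgeR adjusted p = 0.107). Ctss, a cysteine protease of microglia and macrophages that stays active near neutral pH, had 12.3, 12.8 and 13.7 CPM in dmut and 6.88, 6.92 and 11.97 CPM in control. Control 3 came within a small margin of the dmut libraries while controls 1 and 2 were much lower, and the log2 fold was 0.59 ± 0.23 (edgeR adjusted p = 0.201). By RPKM the groups overlapped, at 6.22, 6.68 and 6.33 in dmut and 4.15, 3.65 and 6.57 in control. They overlapped in unique reads as well, and 74.0% of the Ctss reads were unique. Summed microglia and macrophage markers (17 of 18 in the table, none at 0 in any library, none called, median log2 fold 0.21) were at 132, 138 and 108 CPM in dmut and 117, 91.0 and 116 CPM in control. Their part in the Ctss and Ctsz values was not tested.

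The abundant cathepsins differed less. Ctsb had 188, 201 and 189 CPM in dmut and 156, 157 and 189.6 CPM in control, a log2 fold of 0.20 ± 0.11 that came to 0.00 with library size alone. Ctsd had 165, 198 and 152 CPM in dmut and 156, 143 and 168 CPM in control, and the groups overlapped. Ctsa, the protective protein of lysosomal neuraminidase and galactosidase, had 48.6, 50.1 and 50.1 CPM in dmut and 44.1, 42.4 and 48.4 CPM in control, at 0.14 ± 0.09 with TMM and -0.06 with library size alone. The least abundant members carried the least information: Ctso, a little-studied cysteine cathepsin, had 2.90, 3.63 and 2.40 CPM in dmut and 3.51, 4.22 and 4.88 CPM in control, at -0.50 ± 0.25 (edgeR adjusted p = 0.305). Ctse, an aspartic protease of endosomes, had 37.0, 15.6 and 15.8 CPM in dmut and 29.2, 20.1 and 28.6 CPM in control, with dmut 1 highest of all and only 48.7% of its reads unique. Ctsk, the collagenase of osteoclasts, was under the read limit with 10, 0 and 0 reads in dmut and 23, 16 and 33 in control. Of the 14 cathepsin and Lamp members, 4 lay above and 0 below in CPM, where 13.6% and 14.9% of all genes did. By RPKM 1 lay above and 1 below, beside 4.39% and 23.8% of all 17794 genes with RPKM. The median fold of these members was 0.15 with TMM, -0.06 with library size alone and -0.04 on log2(RPKM + 1).

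Vps genes lay in both directions, with 8 above and 6 below in CPM among 32, beside 13.6% and 14.9% of all genes. By RPKM, 3 of them lay above and 9 below, where all 17794 genes with RPKM had 4.39% and 23.8%. The median fold was 0.06 with TMM, -0.14 with library size alone and -0.12 on log2(RPKM + 1).

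In HOPS and CORVET, Vps18, a RING-domain core subunit, had 50.8, 43.0 and 41.3 CPM in dmut and 32.9, 33.0 and 37.1 CPM in control. The groups did not overlap by CPM or RPKM, at a log2 fold of 0.39 ± 0.12 (edgeR adjusted p = 0.118). Vps39, the HOPS subunit that binds Rab7, had 70.2, 70.8 and 67.1 CPM in dmut and 75.0, 82.2 and 76.3 CPM in control, below in every dmut library at -0.17 ± 0.08 (edgeR adjusted p = 0.309). The other core genes Vps11, Vps16 and Vps33a, the HOPS gene Vps41 and the CORVET gene Vps8 had folds between -0.01 and 0.13, and their groups overlapped by CPM.

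Retromer genes overlapped between groups. Vps35, Vps26a, Vps26b and Vps29 had log2 folds of 0.07, 0.12, 0.15 and 0.18 with TMM, all of which were below 0 with library size alone. In GARP, the tether that receives retrograde vesicles at the Golgi, Vps52 had 99.3, 94.7 and 91.4 CPM in dmut and 80.9, 73.6 and 73.7 CPM in control. The groups did not overlap by CPM, and the fold was 0.32 ± 0.09 (edgeR adjusted p = 0.101). Vps51, at 47.5, 44.7 and 50.8 CPM in dmut and 42.7, 34.6 and 41.6 CPM in control, and Vps53, at 0.16 ± 0.09, also lay above in every dmut library by CPM. Vps54, the subunit that makes the complex GARP rather than the endosomal EARP, lay below, with 35.9, 35.5 and 37.3 CPM in dmut and 41.2, 41.6 and 42.2 CPM in control at -0.20 ± 0.09 (edgeR adjusted p = 0.233).

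Among ESCRT genes, Vps37a, an ESCRT-I subunit that also serves in autophagy, had 19.98, 26.4 and 24.3 CPM in dmut and 35.2, 31.7 and 35.4 CPM in control. All 3 dmut libraries lay below all 3 control libraries, by RPKM as well, at a log2 fold of -0.53 ± 0.13 (edgeR adjusted p = 0.0885). Its family members Vps37b, Vps37c and Vps37d had folds of 0.14, -0.04 and 0.07, and their groups overlapped. Vps28, another ESCRT-I subunit, had 48.6, 41.2 and 59.2 CPM in dmut and 39.0, 31.2 and 40.4 CPM in control. The lowest dmut library lay only just above the highest control library, and the fold was 0.43 ± 0.16 (edgeR adjusted p = 0.188). Vps4a had a fold of 0.27 ± 0.10 without overlap by CPM, but only 49.4% of its reads were unique, and for the ESCRT-II gene Vps25, at 0.37 ± 0.22, the share was 13.2%.

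All 4 Vps13 genes had negative folds with TMM, with library size alone and on log2(RPKM + 1). Vps13c, which bridges the endoplasmic reticulum with late endosomes and lysosomes, had 24.4, 25.9 and 28.8 CPM in dmut and 32.0, 40.0 and 43.7 CPM in control. Vps13b, a Golgi protein mutated in human Cohen syndrome, had 26.98, 28.5 and 26.4 CPM in dmut and 33.9, 38.2 and 39.6 CPM in control. Both lay below in every dmut library, by RPKM too, at -0.55 ± 0.14 (edgeR adjusted p = 0.0939) and -0.45 ± 0.10 (edgeR adjusted p = 0.0847). For Vps13d (Vps13d_1 in the table), a gene of mitochondrial and peroxisomal contacts, the fold was -0.25 ± 0.12 with overlap by CPM and none by RPKM. Vps13a, the chorea-acanthocytosis gene, stood at -0.09 ± 0.15 and overlapped.

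Of the remaining Vps genes, Vps33b, which acts with a partner in integrin and granule trafficking, had 7.94, 12.2 and 9.88 CPM in dmut and 16.01, 15.4 and 14.7 CPM in control. It was lower in every dmut library, by RPKM too, at -0.62 ± 0.17 (edgeR adjusted p = 0.107). Vps45, which controls SNARE assembly on endosomes, had 47.0, 48.3 and 45.3 CPM in dmut and 41.7, 40.9 and 38.1 CPM in control, higher in every dmut library, at 0.22 ± 0.09 (edgeR adjusted p = 0.214). Vps72 had the largest positive Vps fold, but despite its symbol it encodes YL1, a nuclear histone chaperone of chromatin-remodelling complexes. It had 186, 121 and 166 CPM in dmut and 105, 85.7 and 99.8 CPM in control, without overlap by CPM or RPKM, at 0.70 ± 0.17 (edgeR adjusted p = 0.0880). Vps72 was called with same-numbered libraries as a block (adjusted p = 0.0476; 1.42% of all genes called), without dmut 2 (0.0375; 3.54%) and with DESeq2 (0.00284; 10.6%). Its adjusted p was 0.0710 to 0.364 under the other alternatives, the highest with the date as a block, and the authors' deposited table gave a fold of 1.62 with an adjusted p of 0.361.

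**Figure D3:**
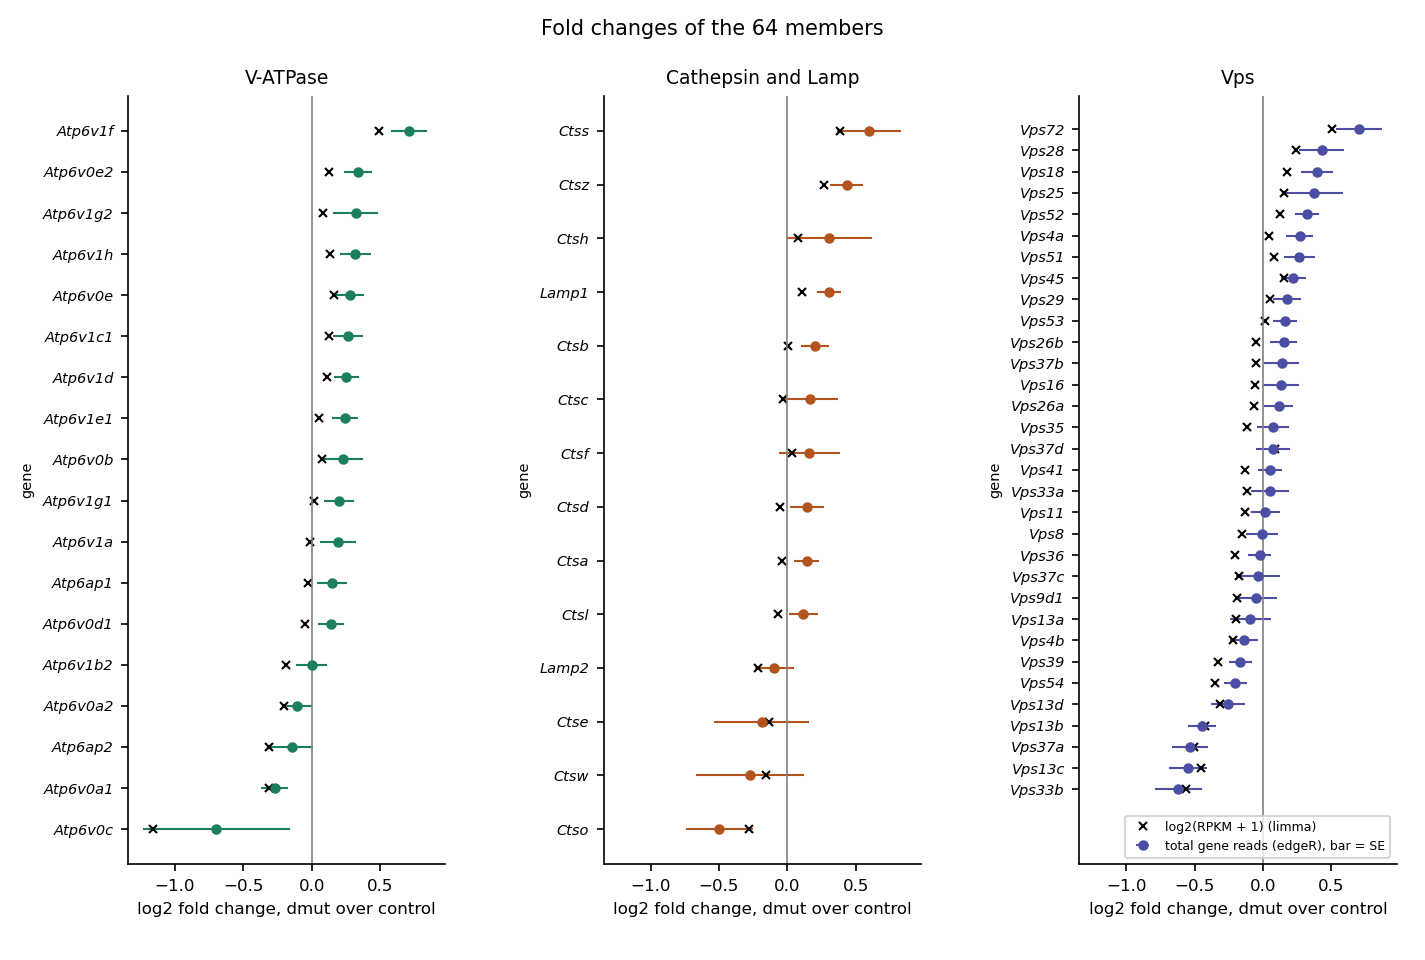
Log2 fold change of each of the 64 members, dmut over control, from total gene reads (circles, bars are SE) and from log2(RPKM + 1) (crosses). The crosses lie left of the circles for most members with folds near or above 0, and the folds of Vps33b, Vps37a, Vps13b and Vps13c are below 0 on both scales.

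**Figure D4:**
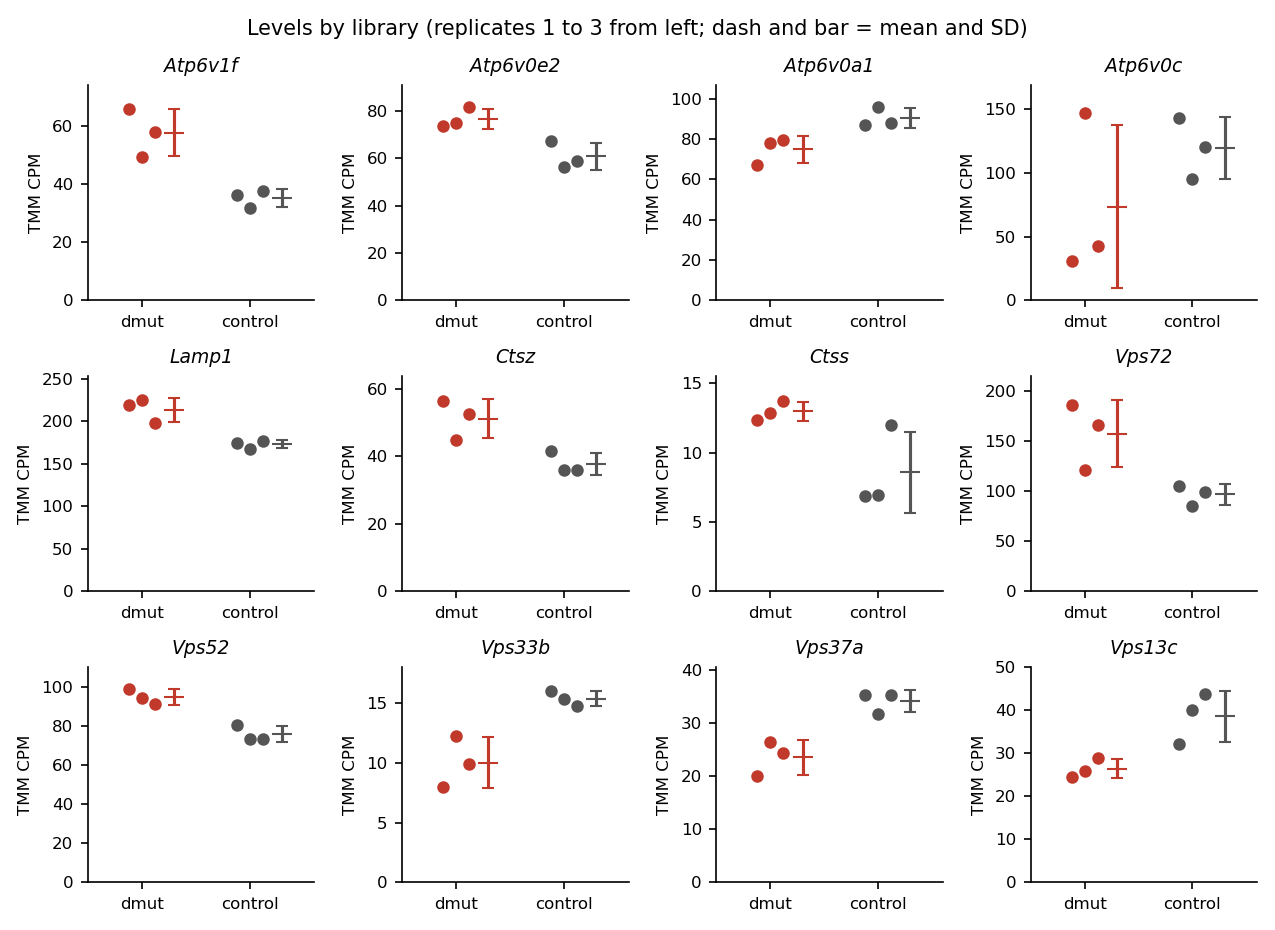
TMM CPM of 12 members in each library, dmut in red on the left and control in grey on the right, with the group mean and SD (n = 3) beside the points. The 12 genes were picked with their values known, so that 11 of them show no overlap is not a result. Of all 64 members, 20 lay above and 7 below without overlap, where 28.5% of all genes did not overlap. For Atp6v0c dmut 2 at 147 CPM lies above every control library while dmut 1 and 3 lie far below.

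The fold of a gene in these libraries was related to its length, and this held for the members. Over 12470 annotated genes with a mean of 50 or more reads, the log2 fold and the summed exon length had a Spearman correlation of -0.38, and over the 64 members it was -0.49 (genes of the same 6 libraries, so not independent points). Within the families the correlation was -0.30 for V-ATPase, -0.27 for cathepsin and Lamp, and -0.64 for Vps genes. The 10 members under 1500 bases, Atp6v1f (1063 bases), Vps28 (1009) and Vps72 (1456) among them, had a median fold of 0.34, where the 1618 genes of that length had 0.35. The 11 members of 5000 bases or more, among them Vps13b (13757), Vps13c (11527) and Vps37a (6379), had a median of -0.11, where 3355 genes of that length had -0.12. In between, the 20 members of 3000 to 5000 bases had a median of 0.14 and all genes of that length -0.03.

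Once the dependence of each library on transcript length and base composition had been fitted and removed, 0.508% of all genes and none of the members were called (11 higher and 5 lower at an unadjusted p under 0.05, which 19.6% of all genes passed), the correlation over the members was -0.11 and the family medians were 0.07 for V-ATPase, 0.15 for cathepsin and Lamp and 0.07 for Vps genes. Within the V-ATPase the sectors differed: the V1 median was then 0.24 and the V0 median -0.05, against 0.25 and 0.14 before removal. Atp6v1f then stood at 0.40 (edgeR adjusted p = 0.0851) and Vps72 at 0.55 (edgeR adjusted p = 0.0851). Vps33b, a gene of 2574 bases, stood at -0.66 (edgeR adjusted p = 0.123). The folds of Vps13b, Vps13c and Vps37a were -0.30, -0.41 and -0.43. The other Vps13 genes stood nearer to no difference, Vps13d at -0.10 and Vps13a at 0.06, so the Vps13 genes no longer shared a sign. Over the 32 Vps genes the Spearman correlation was then -0.39.

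**Figure D5:**
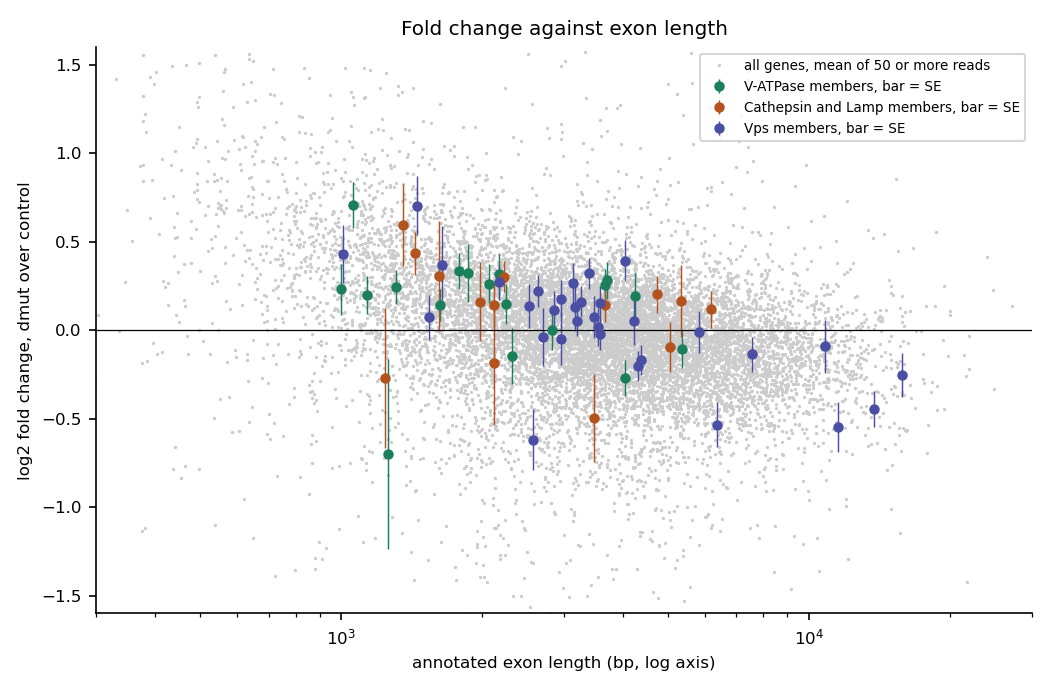
Log2 fold change (dmut over control) against annotated exon length in bases (log axis) for genes with a mean of 50 or more reads (grey) and for the members (coloured by family, bars are SE). Short members such as Atp6v1f and Vps72 lie high and the long Vps13 genes lie low; Atp6v1f at 0.71 and Vps72 at 0.70 are above the median of 0.35 for genes under 1500 bases.

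Many lysosomal genes carry an E-box-like element in their promoters, known as CLEAR, that binds the transcription factor Tfeb and its relatives. RefSeq promoter windows (GRCm38.p6, 250 bases before to 50 after a start) were at hand for 43 of the 64 members. The letters TCACGTGA, the same on both strands, were found in 8 of these 43 genes (18.6%), in 228 of the 11149 tested genes with a window (2.05%) and in 0.974% of 32851 windows of that length. Its core CACGTG was found in 12 of the 43 members (27.9%) and in 11.2% of tested genes. The element is known from lysosomal genes, and the members were chosen by symbols of such genes. Its larger share among them is therefore not a separate result. The 60 bases around the match are shown for all 8 genes, with the match in capitals. They are Atp6v0d1 (chr8:105566035-105566094, minus strand), Atp6v0e (chr17:26676372-26676431, plus), Atp6v1a (chr16:44139358-44139417, minus), Ctsa (chr2:164833734-164833793, plus), Ctsd (chr7:142387893-142387952, minus), Vps16 (chr2:130424275-130424334, plus), Vps26a (chr10:62486717-62486776, minus) and Vps33a (chr5:123573011-123573070, minus), each read 5′ to 3′ along the gene.
Atp6v0d1: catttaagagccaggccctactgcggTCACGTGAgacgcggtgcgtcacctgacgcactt
Atp6v0e: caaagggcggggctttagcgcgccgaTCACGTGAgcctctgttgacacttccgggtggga
Atp6v1a: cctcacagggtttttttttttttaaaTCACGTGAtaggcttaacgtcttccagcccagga
Ctsa: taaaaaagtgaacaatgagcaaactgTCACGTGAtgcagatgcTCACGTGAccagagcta
Ctsd: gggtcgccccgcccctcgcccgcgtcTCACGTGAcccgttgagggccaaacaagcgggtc
Vps16: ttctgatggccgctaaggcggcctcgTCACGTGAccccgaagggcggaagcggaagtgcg
Vps26a: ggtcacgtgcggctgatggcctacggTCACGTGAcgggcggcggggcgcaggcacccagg
Vps33a: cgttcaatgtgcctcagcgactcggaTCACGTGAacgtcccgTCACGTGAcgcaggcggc

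The windows of Ctsa and Vps33a hold 2 copies each, and Vps26a has a further match near another annotated start (chr10:62486955-62487014, minus strand). The match begins within 30 bases of the annotated start in Atp6v0d1, Atp6v0e, Ctsa, Vps16 and Vps33a. The 8 genes had log2 folds from 0.05 to 0.28 with a median of 0.14 with TMM and -0.05 on log2(RPKM + 1), and none of them passed the test. The other 35 members with a window had folds from -0.70 to 0.71 with a median of 0.16 with TMM and 0.02 on log2(RPKM + 1). The 8 motif-bearing genes thus lay in the middle of the members' range.

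Genes that work with the members were examined as lists, and none of their genes passed the test (edgeR, 77 of 15960 genes or 0.482% called). The 18 V-ATPase partners (assembly factors, the RAVE complex, TLDc proteins and the chloride transporters that accompany proton pumping) had a median log2 fold of -0.23, with 3 positive folds and with 0 genes above and 6 below control in every dmut library, where 13.6% and 14.9% of all genes did so. Those of smallest p were the proton-chloride exchangers Clcn5, at 21.7, 28.0 and 25.1 CPM in dmut and 32.4, 37.8 and 40.8 CPM in control (-0.57 ± 0.14, edgeR adjusted p = 0.0884), and Clcn6, at 64.4, 61.6 and 75.8 CPM in dmut and 90.4, 86.4 and 91.6 CPM in control (-0.41 ± 0.10, edgeR adjusted p = 0.0922). Both lay below control in every dmut library, and Clcn5 has 8390 bases of exon.

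The 40 other lysosomal hydrolases and cofactors had a median of -0.05, with 14 positive folds, 5 genes above and 6 below without overlap, near the 13.6% and 14.9% of all genes. Npc2, the soluble cholesterol carrier, stood at 0.55 ± 0.12 (edgeR adjusted p = 0.0806), above control in every dmut library. Of 5 cathepsin inhibitors 2 were testable. Cstb, a cytosolic inhibitor, had 25.3, 17.1 and 22.7 CPM in dmut and 13.6, 13.02 and 13.9 CPM in control (0.68 ± 0.16, edgeR adjusted p = 0.0868), and the secreted inhibitor Cst3 stood at 0.41 ± 0.19 (edgeR adjusted p = 0.267). Both lay above control in every dmut library by CPM, and both are short, at 603 and 860 bases.

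The 15 tested of 18 other lysosomal membrane proteins had a median of -0.01, with the cystine transporter Ctns at -0.40 ± 0.13 and the tetraspanin Cd63 at 0.37 ± 0.17. The 10 genes of enzyme sorting by mannose 6-phosphate and related receptors had a median of -0.16, with 2 positive folds, and the transferase Gnptab and the adaptor Gga2 stood at -0.37 ± 0.13 and -0.31 ± 0.11. The 39 tested of 47 partners of the Vps complexes had a median of 0.08 with 22 positive folds. Among them the ESCRT-III genes Chmp1a (0.66 ± 0.11, edgeR adjusted p = 0.0636) and Chmp4b (0.34 ± 0.08, edgeR adjusted p = 0.0872) had the smallest p. Both lay above control in every dmut library by CPM. By RPKM the groups of Chmp1a overlapped, at 7.99, 11.2 and 11.5 in dmut and 9.27, 8.67 and 10.03 in control. Its fold on log2(RPKM + 1) was 0.10. Chmp4b did not overlap by RPKM, and its fold on log2(RPKM + 1) was 0.16. The 19 genes of the Tfeb family and of mTORC1 at the lysosome had a median of 0.03 with 10 positive folds, with the Ragulator subunit Lamtor5 at 0.58 ± 0.16 (edgeR adjusted p = 0.101) and the kinase gene Mtor at -0.30 ± 0.08 (edgeR adjusted p = 0.107). With library size alone, all of these medians except that of the cathepsin inhibitors were negative.

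The sample titles carry dates: 29 March for dmut 1 and 2 with control 2, 4 May for dmut 3 with control 3, and 23 March for control 1 alone. Within dates libraries were too few for a test, and for members whose groups did not overlap the sign within a date was fixed by that. Atp6v1f stood at 0.84 on 29 March and 0.62 on 4 May (log2, dmut over control), Vps72 at 0.81 and 0.74, Vps33b at -0.64 and -0.58, Vps37a at -0.47 and -0.54, Vps13b at -0.46 and -0.58, and Vps13c at -0.67 and -0.60. Lamp1 stood at 0.40 and 0.16, Ctss at 0.86 and 0.20, and Atp6v1h at 0.45 and 0.04. Among the family medians, V-ATPase stood at 0.27 on 29 March and 0.08 on 4 May, cathepsin and Lamp at 0.28 and -0.12, and Vps at 0.05 and -0.03. The positive cathepsin and Lamp median was thus not seen on 4 May, when Ctsd, Ctsf, Ctsc, Ctsh and Ctsb were among the genes at or below 0.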

How the data were processed

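The labels' protocols describe column-purified RNA, bead isolation of messenger RNA and barcoded Ion Torrent libraries. The submitters' processing notes name the build GRCm38 (mm10); which aligner and counter were used is not given in the sources used here. The authors deposited total and unique gene reads as raw counts, and no total count lay between 1 and 9. RPKM values were computed by the authors, per the file headers. The authors' own test was deposited beside them, with a p-value, an FDR and a fold change written as a signed score (negative for lower in dmut). A further 8 columns of normalized values and their means were not used.

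The main test was the two-sided quasi-likelihood test of edgeR 4.0.16 in R 4.3.3, applied to total gene reads with TMM factors and the default filter, for 3 dmut against 3 control libraries, with p adjusted over 15960 genes. RPKM were tested with limma 3.58.1 on log2(RPKM + 1), a scale that understates changes of low genes. Trends on length and GC were fitted per library with mgcv 1.9.3. Lengths and coordinates come from GENCODE M21, whose names matched 94.2% of genes and all 64 members. Scripts were tested on simulated data. Alternatives were DESeq2 1.42.0, limma-voom, other scalings, filters, pseudocounts and thresholds, unique reads, blocks, and each library left out. Within a group, libraries differed by more than sampling noise (chi-square over degrees of freedom 26.6 to 150). A count of 10 reads was 0.289 to 0.374 CPM before TMM.

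Members and lists were chosen with earlier results of these data known. The rule for named members took called genes, the 3 of highest mean RPKM per family, the 4 largest folds each way among genes without overlap, all gene copies of a family, and the members nearest the read limit; from each list it took the 2 genes of smallest p, of which 1 is not reported here. The other members named were chosen after their values were seen, as were the within-date values.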

Additional observations from a re-analysis of the deposited data

How the results depend on the processing

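The count of genes called over the whole table, 77 in the main test, was 780 with library size alone (52 higher and 728 lower, against 26 and 51 with TMM), 135 when genes needed a mean of 50 reads, 1799 with DESeq2 (1011 higher and 788 lower), 127 with limma-voom, 22 with limma on log2(RPKM + 1), 1065 at an adjusted p of 0.1, and 2 to 585 with 1 library left out, the highest without dmut 2. With the label date as a block, edgeR called 0 genes, with 2033 at an unadjusted p under 0.05. Deviations from the group means of same-numbered libraries correlated at 0.110, 0.123 and 0.0152. Those of differently numbered libraries correlated at -0.136 to 0.0163, so numbers 1 and 2 had the highest values. All were small, and the main test did not take the numbers to pair libraries. With a replicate block 227 genes were called, 13 once the length and GC trend was removed as well. Among members Atp6v1f and Vps72 were called under the block (1 V-ATPase and 1 Vps gene) and neither with the trend removed too.

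Called V-ATPase members numbered 0 in the main test, 2 with DESeq2, 1 at an adjusted p of 0.1 and 0 to 2 with 1 library left out (Atp6v0c and Atp6v1f without dmut 2). Called cathepsin and Lamp members numbered 0, and 2 with DESeq2 (Ctsz and Lamp1). Called Vps members numbered 0 in the main test, 4 with library size alone (Vps13b, Vps13c, Vps33b and Vps37a, all lower), 7 with DESeq2, 4 at an adjusted p of 0.1 and 0 to 2 with 1 library left out (Vps33b and Vps72 without dmut 2). The V-ATPase median of 0.22 was 0.018 with library size alone, 0.034 on each of the 3 RPKM settings, 0.070 with the length and GC trend removed and 0.066 with the replicate block added. The cathepsin and Lamp median of 0.15 was -0.056 with library size alone and -0.037, -0.050 and -0.037 on log2(RPKM + 1), log2(RPKM + 0.1) and genes of mean RPKM of at least 1. The Vps median of 0.06 was -0.14 with library size alone, -0.12 on each of these 3 settings and 0.024 to 0.11 with 1 library left out (the highest without control 3, the lowest without dmut 2). Of 818 values for 39 named members under the alternatives, 793 kept their side of the threshold, 25 passed it where the main value had not, and 59 had the other sign, none with both folds beyond their standard errors. The causes were not tested. For members of few reads, such as Ctsw and Ctsh, depth limits what can be seen.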
